A study of Mus musculus with 10 samples.

Results

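The genes described here are 10 components of TGF-beta and activin signalling, measured by RNA sequencing in mouse cardiomyocytes, which are the heart's contracting cells. They were chosen by symbol: the ligand genes Tgfb1, Tgfb2, Tgfb3, Inhba and Mstn, the receptor genes Tgfbr1, Tgfbr2 and Tgfbr3, the latent binding protein gene Ltbp1 and the inhibitory SMAD gene Smad7. All 10 were among the 23337 genes of the authors' deposited table, and all 10 were among the 14056 genes that passed the authors' filter on low values and carried an adjusted p-value.

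The groups compared were the labels' GFP and dnMKL1 libraries, with 5 biological replicates in each, all from wild-type mice. The mice were given adeno-associated virus of serotype AAV9 on postnatal day 1, at 5e+08 viral genomes per gram, and their cardiomyocytes were collected on postnatal day 14 by collagenase perfusion and fluorescence-activated sorting. The virus carried GFP alone or GFP with dnMKL1, a dominant-negative form of MKL1 (also called MRTF-A), a coactivator of serum response factor (SRF). In both constructs expression was driven by cTNT, a cardiac troponin T promoter used for expression in cardiomyocytes, so virus, GFP and sorting were common to both groups and GFP was the only control.

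TGF-beta ligands are secreted as latent dimers that are held in the matrix by latent TGF-beta binding proteins and are released by integrins and proteases. The active ligand binds the type II receptor TGFBR2, which recruits the type I receptor TGFBR1 and leads to phosphorylation of SMAD2 and SMAD3, while activin A, a dimer of the Inhba product, and myostatin, the product of Mstn, reach the same SMADs through the activin receptors. In the heart these ligands are known for their part in matrix production, in the growth of cardiomyocytes and, for myostatin, in limiting muscle mass.

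The table holds the authors' comparison of the groups and no value per library, so that the spread between libraries enters only through the standard error (SE) of each fold change. The direction was read from Mkl1, the source of the dominant-negative construct, which had a log2 fold change of 9.80 (SE 0.15) in the authors' deposited table, and positive values are taken as higher in dnMKL1. Library totals, estimated from the size factors that the low-count genes reveal, ran from 8803005 to 17228537 counts. With a call at an adjusted p-value under 0.05, 16.6% of all genes tested were higher and 17.4% lower in dnMKL1. The median log2 fold change of all genes tested was 0.021. These directions are relative to the authors' scaling: scaling both groups to the same summed counts adds 0.29 to every log2 fold change, and 40.4% of genes were then higher and 6.60% lower.

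Of the 10 genes, 6 rose in dnMKL1 cardiomyocytes and 0 fell by the authors' Wald test with Benjamini-Hochberg adjustment, and 0 were lower at an unadjusted p-value under 0.05. The 6 were Inhba, Mstn, Tgfb2, Tgfbr2, Tgfb3 and Ltbp1, in order of fold change. They make up 60.0% of the 10 genes, against 16.6% of all genes tested. Because the 10 were chosen with earlier results of these data known, that excess is no measure of enrichment. The median log2 fold change of the 10 was 0.78, and the values spread from -0.06 for Tgfbr3 to 3.20 for Inhba. Under the total-count scaling all 10 were past the threshold as higher, Tgfbr3 included, against 40.4% of all genes tested. The same 6 passed an adjusted p-value under 0.01 (11.9% of all genes higher, 13.4% lower), under 0.1 (19.8% higher) and under 0.05 after adjustment over every p-value (12.8% higher). They also passed with a base mean of at least 10 (19.1% higher), median-centring (16.4% higher) or an absolute log2 fold change of at least 0.5 (10.6% higher, 8.86% lower), and with a base mean of at least 100 (19.4% higher) Inhba and Mstn were left out.

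On GRCm38 (RefSeq) the ligand genes lie at chr13:16004256-16031609 (Inhba), chr1:53061640-53068079 (Mstn), chr1:186622787-186709697 (Tgfb2), chr12:86056743-86079041 (Tgfb3) and chr7:25687002-25705077 (Tgfb1). The receptor genes lie at chr4:47353222-47414926 (Tgfbr1), chr9:116087695-116175363 (Tgfbr2) and chr5:107106567-107289629 (Tgfbr3), and Ltbp1 at chr17:75005480-75392512. The table has 1 value per gene, so transcripts of a gene are not separated.

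**Figure D1:**
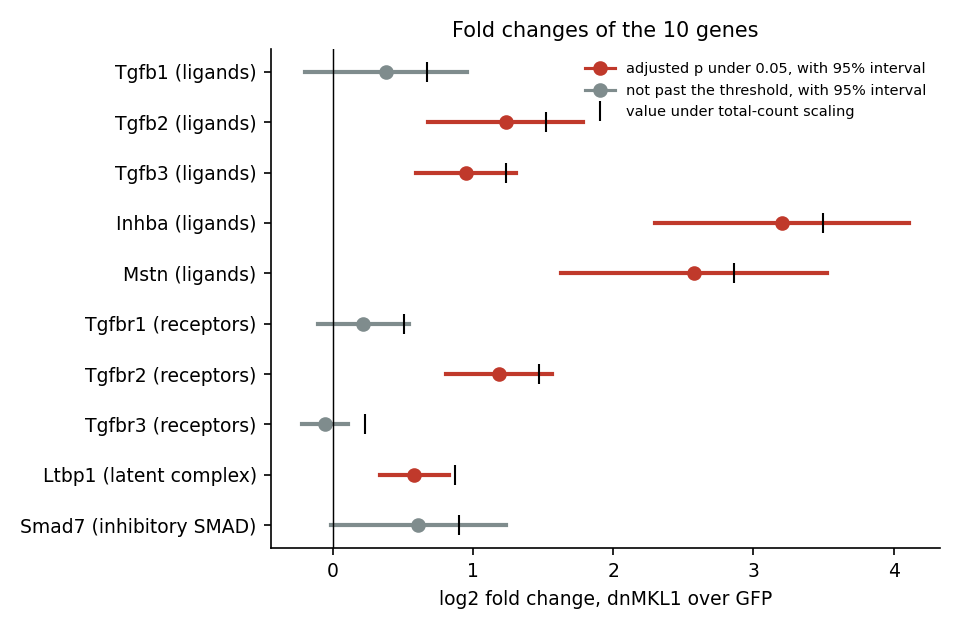
Log2 fold change of dnMKL1 over GFP on the x axis for the 10 genes, each with its role. Points are the values of the authors' deposited table, bars the 95% intervals computed from the SE, red marks an adjusted p-value under 0.05, and the short black line is the value under total-count scaling. The intervals of Inhba, Mstn, Tgfb2, Tgfb3, Tgfbr2 and Ltbp1 lie above 0, and that of Tgfbr3 is the narrowest.

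Among the ligand genes, 4 of 5 rose. Inhba, which encodes the beta A subunit of activin, had an implied mean of 11.8 normalized counts with GFP and 109 with dnMKL1. An implied mean is the group mean computed from the mean over all libraries and the fold change. The fold was 9.22, with a 95% interval of 4.91 to 17.3. The authors' deposited table listed a log2 fold change of 3.20 (SE 0.46) with a Benjamini-Hochberg adjusted Wald p-value of 1.35e-10. It placed Inhba 80th of the 14056 genes tested when ranked by log2 fold change.

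Mstn, whose product is a secreted inhibitor of muscle growth, went from 13.3 to 79.2 normalized counts (implied means), a 5.95-fold rise with a 95% interval of 3.08 to 11.5. The authors' deposited table listed a log2 fold change of 2.57 (SE 0.48) and an adjusted Wald p-value of 1.35e-06, the 131st place by fold change. Both genes thus started from little more than 10 normalized counts, the lowest levels of the 10 in the GFP group, and their intervals were the widest of the 10. Whether the rise of Inhba was larger than that of Mstn was not tested, and their intervals overlap.

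The 3 TGF-beta isoforms, which share the receptor complex, gave different values. Tgfb2 went from 167 to 393 normalized counts (implied means), 2.35-fold with a 95% interval of 1.60 to 3.45. Tgfb3 went from 149 to 286, 1.93-fold with an interval of 1.504 to 2.47. For Tgfb2 the authors' deposited table listed an adjusted Wald p-value of 1.01e-04, and for Tgfb3 one of 2.40e-06. Tgfb1, by contrast, had implied means of 54.4 and 70.8 and did not pass the threshold (log2 fold change 0.38, SE 0.30, adjusted Wald p-value 0.351 in the authors' deposited table). Its 95% interval of 0.872-fold to 1.94-fold overlaps those of Tgfb2 and Tgfb3, so that a rise of Tgfb1 by the amount seen for Tgfb3 falls just inside its limits. The differences between isoforms were not tested, since the table gives no covariance between genes. Under total-count scaling Tgfb1 was past the threshold at a log2 fold change of 0.67, with an adjusted p-value of 0.0497.

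The sequences before the start sites of the ligand genes that rose, and of Ltbp1, are shown because these genes moved in the same direction. They come from RefSeq on GRCm38.p6, which holds a window of 300 bases (250 before to 50 after a start site) for 7 of the 10 genes, 9 windows in all: Tgfb1, Tgfb2, Inhba, Mstn, Tgfbr1, Tgfbr2 and Ltbp1. Tgfb3, Tgfbr3 and Smad7 were not among them. Each line gives the 250 bases before the start site, 5′ to 3′ on the gene's strand, at chr13:16011601-16011850 (plus strand) for Inhba, chr1:53061390-53061639 (plus) for Mstn, chr1:186705990-186706239 (minus) for Tgfb2 and chr17:75178531-75178780 (plus) for the downstream of the Ltbp1 start sites. The Inhba, Tgfb2 and downstream Ltbp1 windows lie inside the RefSeq spans of their genes, which start further upstream. The end of each window was found in a GENCODE transcript of its gene, except for the Ltbp1 windows. Their start sites therefore rest on RefSeq alone. Capitals mark CAGACA, a SMAD-type motif, or its reverse complement, and TGANTCA, an AP-1-type motif.
Inhba: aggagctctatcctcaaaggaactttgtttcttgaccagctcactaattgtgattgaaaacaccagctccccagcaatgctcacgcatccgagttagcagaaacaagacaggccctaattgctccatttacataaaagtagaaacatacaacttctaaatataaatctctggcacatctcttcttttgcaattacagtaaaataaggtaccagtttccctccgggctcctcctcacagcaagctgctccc
Mstn: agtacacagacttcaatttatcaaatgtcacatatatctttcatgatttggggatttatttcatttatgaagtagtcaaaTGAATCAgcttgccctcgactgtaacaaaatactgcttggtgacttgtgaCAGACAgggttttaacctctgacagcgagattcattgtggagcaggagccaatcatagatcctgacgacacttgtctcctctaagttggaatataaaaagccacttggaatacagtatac
Tgfb2: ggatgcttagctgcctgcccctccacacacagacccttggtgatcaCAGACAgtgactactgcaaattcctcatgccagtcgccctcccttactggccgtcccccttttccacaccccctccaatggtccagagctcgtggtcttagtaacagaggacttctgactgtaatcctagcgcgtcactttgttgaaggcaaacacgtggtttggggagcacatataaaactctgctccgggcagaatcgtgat
Ltbp1, downstream start site: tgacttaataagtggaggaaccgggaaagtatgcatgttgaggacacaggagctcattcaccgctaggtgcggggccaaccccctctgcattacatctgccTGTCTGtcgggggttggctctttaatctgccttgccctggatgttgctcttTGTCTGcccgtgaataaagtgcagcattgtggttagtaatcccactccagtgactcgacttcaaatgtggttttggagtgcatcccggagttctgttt

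The Mstn window held CAGACA at -120 and TGANTCA at -170, counted from the start site to the first base of the match, the latter on both strands at the same place. In Tgfb2 CAGACA lay at -204, in the second Tgfbr1 window at -203, and in the downstream Ltbp1 window its reverse complement stood at -149 and -98. The Inhba, Tgfb1 and Tgfbr2 windows, the first Tgfbr1 window and the upstream Ltbp1 window held none of the motifs searched, which were these, GGAATG (a TEAD-type motif) and the CArG box that SRF binds, on both strands. No window of these genes held a CArG box, which was found in 1.63% of the 32851 RefSeq windows of the same length. CAGACA was in 21.0% of all windows, GGAATG in 14.7% and TGANTCA in 7.81%, so that a match is common by letters alone. No matches of different motifs overlapped in these windows. The Mstn window was poor in G and C, at 41.3% against a median of 52.7% over all windows, whereas that of Tgfb1 had 77.0%.

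Of the receptor genes 1 of 3 rose. Tgfbr2, which encodes the type II receptor that binds TGF-beta and starts the signal, went from 186 to 422 normalized counts (implied means), 2.27-fold with a 95% interval of 1.75 to 2.95. The authors' deposited table gave a log2 fold change of 1.18 (SE 0.19) and an adjusted Wald p-value of 1.62e-08. Tgfbr1, the type I receptor that TGFBR2 recruits, had implied means of 414 and 482 and did not pass the threshold, at 0.22 (SE 0.16) with an adjusted Wald p-value of 0.336 in the authors' deposited table. Its interval of 0.930-fold to 1.45-fold lies wholly below that of Tgfbr2, although the difference itself was not tested.

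Tgfbr3, the coreceptor betaglycan that presents TGF-beta2 to the signalling receptors and also binds inhibin, was the most precisely measured of the 10. Its implied means were 1030 and 990 normalized counts, and the authors' deposited table listed a log2 fold change of -0.06 (SE 0.09, adjusted Wald p-value 0.676). The 95% interval ran from 0.856-fold to 1.08-fold. Under total-count scaling the sign turned, to a log2 fold change of 0.23 with an adjusted p-value of 0.0167. The receptor genes therefore gave a clear rise for Tgfbr2 under either scaling, while the place of Tgfbr1 and Tgfbr3 depended on it.

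Ltbp1 encodes the protein that tethers latent TGF-beta to the matrix, and it was the most abundant of the 10. It went from 2088 to 3121 normalized counts (implied means), 1.49-fold with a 95% interval of 1.26 to 1.77. The authors' deposited table gave a log2 fold change of 0.58 (SE 0.13) and an adjusted Wald p-value of 3.35e-05. RefSeq places its 2 start-site windows on chromosome 17 far apart, and one count per gene does not separate the long from the short transcripts. Smad7, the inhibitory SMAD that is itself induced by TGF-beta signalling, had implied means of 148 and 226. The authors' deposited table listed for it a log2 fold change of 0.61 (SE 0.32, adjusted Wald p-value 0.131), and its interval of 0.990-fold to 2.35-fold just includes no change. Smad7 had nearly the same fold change as Ltbp1, with an SE larger than that of Ltbp1, and it was past the threshold under total-count scaling at 0.90 (adjusted p-value 0.0127).

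For most of these genes the fold change was less precise than for others of like abundance. The coefficient of variation between libraries that each SE implies under a negative binomial model ran from 8.77% for Tgfbr3 to 48.8% for Mstn and 45.9% for Inhba. For 9 of the 10 genes the SE was above the median of the 200 genes nearest in base mean, by 2.41 times for Smad7, 2.37 times for Tgfb2 and 2.17 times for Inhba, and Tgfbr3 was the exception at 0.944 times. These values come from fitted dispersions and not from the libraries themselves.

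**Figure D2:**
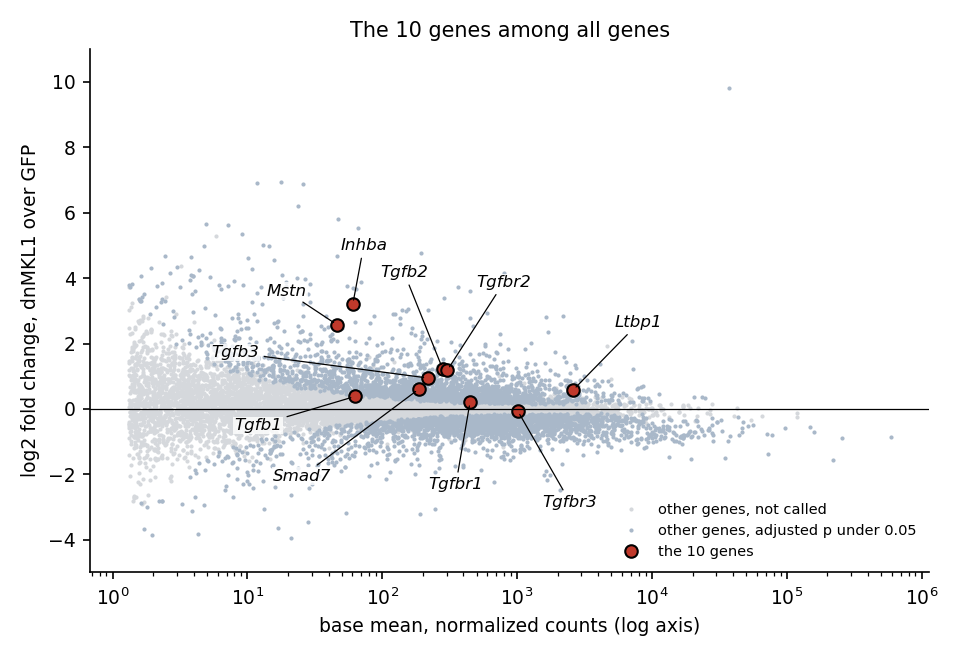
Base mean in normalized counts (log axis) against the log2 fold change of dnMKL1 over GFP for each gene at or above the smallest base mean the authors tested, 1.31. Small points are other genes, darker where the adjusted p-value is under 0.05, and the large points are the 10 genes. Inhba and Mstn stand near 3.20 and 2.57 at low base means, and Tgfbr3 lies at the centre of the cloud.

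Per kilobase of the longest GENCODE transcript, the order of levels in the GFP group was Ltbp1 (313 normalized counts per kb), Tgfbr3 (169), Tgfbr1 (72.0), Tgfb3 (43.9), Smad7 (34.6), Tgfb2 (32.7), Tgfbr2 (22.9), Tgfb1 (21.1), Mstn (4.92) and Inhba (1.85). Neighbours from Tgfb3 down to Tgfb1 in that order differed by less than the larger of their modelled SDs between libraries, and the other neighbours differed by more. In the dnMKL1 group Ltbp1 (468) and Tgfbr3 (163) still led, followed by Tgfb3 (84.6), Tgfbr1 (83.7) and Tgfb2 (76.8), which differed from one another by less than that SD. Next came Smad7 (52.8) and Tgfbr2 (52.1), then Mstn (29.3) and Tgfb1 (27.5), each pair again within the SD, and Inhba (17.1) was lowest. Among ligand transcripts Tgfb3 was thus the highest per length in either group, within the SD of Tgfb2 in dnMKL1, and Mstn went from below Tgfb1 to a level within the SD of it.

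**Figure D3:**
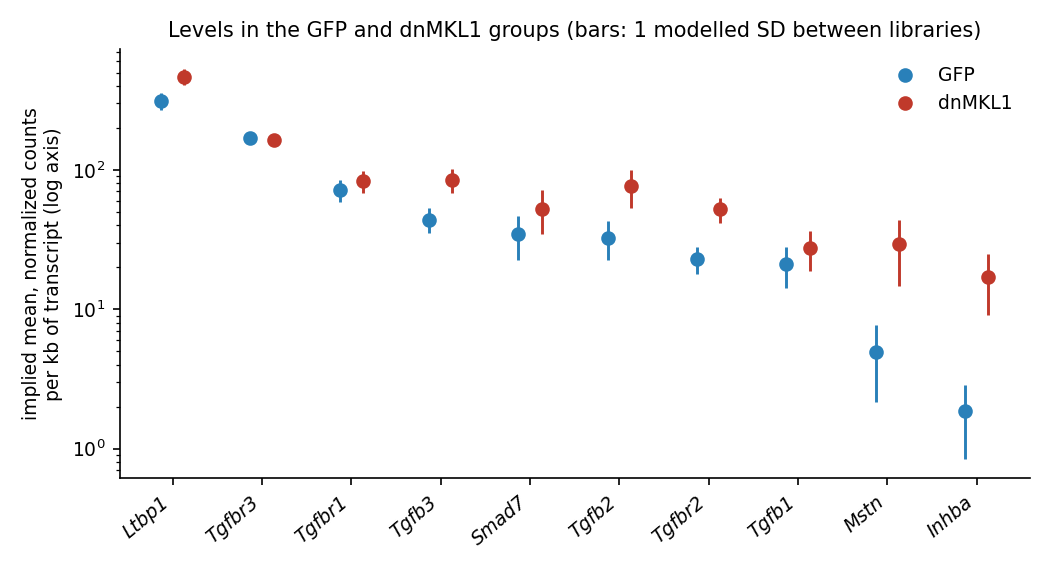
Implied mean per kb of transcript (log axis) for the 10 genes in the GFP group (blue) and the dnMKL1 group (red), ordered by the GFP level, with bars of 1 modelled SD between libraries. Inhba and Mstn, at 1.85 and 4.92 in GFP, moved furthest, and the points of Tgfbr3 lie at nearly the same height.

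Sequenced counts could also come from other cells in the sort, and in such samples a change in the number of cells of a type cannot be told apart from a change in RNA per cell. The cells carried cardiomyocyte transcripts at very high level, with base means of 594986 for Myh6 and 118960 for Mb in the authors' deposited table. The counts below stand beside 16.6% higher and 17.4% lower over all genes tested. Of 10 cardiomyocyte markers 6 were lower and 0 higher (median log2 fold change -0.45), with -0.87 (SE 0.11) for Myh6 in the authors' deposited table. Of 12 fibroblast markers 4 were higher and 0 lower (Gsn, Col1a2, Col1a1 and Col3a1), and the summed implied means of the 12 went from 4515 to 6982. Within that sum Gsn had implied means of 876 and 1951, and Col3a1 of 1937 and 2625. All log2 fold changes of the fibroblast list were positive, from 0.02 to 1.15, with a median of 0.46. Pdgfra and Tcf21, markers of that list not picked by the naming rule, were at 0.06 (SE 0.25) and 0.79 (SE 0.52) in the authors' deposited table. Neither passed the threshold, at low base means of 42.6 and 8.40. More abundant markers of the list did not pass either. These were Postn at 0.51 (SE 0.23), Dcn at 0.27 (SE 0.16) and Lum at 0.25 (SE 0.20), with base means of 416, 361 and 112 in the authors' deposited table. The part of fibroblast RNA in the rises of Tgfb2, Tgfb3 and Tgfbr2, which fibroblasts also express, was not tested.

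Endothelial markers gave 0 of 12 past the threshold, also at an unadjusted p-value under 0.05, with summed means of 4373 and 4445. Kdr and Fabp4, the most abundant of them, had base means of 876 and 825 in the authors' deposited table. They were imprecise there, at 0.10 (SE 0.29) and -0.11 (SE 0.52). Those SEs were 3.01 and 5.64 times the median of the 200 genes nearest in base mean. The 95% interval of Fabp4 ran from -1.14 to 0.92 on the log2 scale, so a sizeable change in it would not have been seen. Mural markers, of pericytes and smooth muscle, gave 3 of 9 higher (Cspg4, Tagln and Myh11) and 1 lower (Acta2), with a median log2 fold change of 0.30. Their sums were 18254 and 15947, of which Acta2 and Abcc9 made up most. The fall of the sum came from Acta2, with implied means of 10454 and 4999. Abcc9 had 6332 and 7773 without passing the threshold, and Cspg4 had 501 and 2019. The rest of the list did not pass either. In the authors' deposited table Pdgfrb was at 0.18 (SE 0.24), Rgs5 at 0.01 (SE 0.31), Kcnj8 at 0.03 (SE 0.30) and Notch3 at 0.45 (SE 0.20). The mural sums thus mostly reflect Acta2 and Abcc9, and whether they come from mural cells was not tested. The macrophage list had 1 of 10 higher and sums of 183 and 162, with base means of 50.3 for Lyz2 and 32.2 for Csf1r in the authors' deposited table. The epicardial list had 0 of 6 past the threshold or at an unadjusted p-value under 0.05 (sums 64.0 and 66.9; Wt1 and Msln had base means of 19.95 and 15.2 in the authors' deposited table), and the Schwann cell list 1 of 4, S100b (sums 41.1 and 55.3; S100b had a base mean of 8.74 in the authors' deposited table). None of the markers in these lists was listed at 0. The lists are short, and over all genes tested 16.6% were higher and 17.4% lower. Whether the share of any marker list differed from that was not tested.

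**Figure D4:**
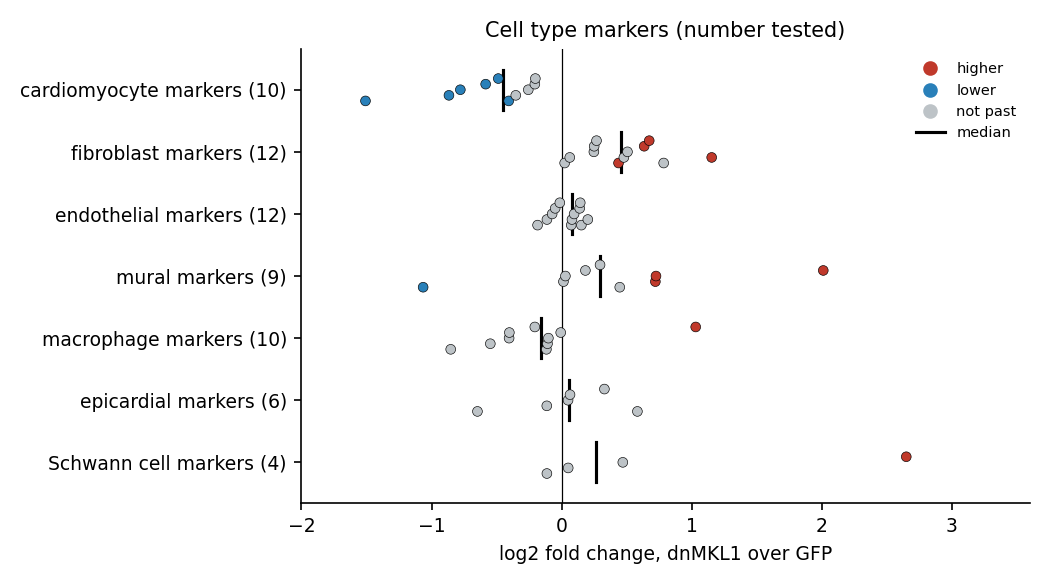
Log2 fold change of dnMKL1 over GFP for the tested members of each cell type marker list, with the number tested in brackets. Red points were called higher and blue points lower (adjusted p-value under 0.05), and the black line is the list's median, at -0.45 for cardiomyocyte, 0.46 for fibroblast and 0.08 for endothelial markers.

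The other genes of the pathway were read from 8 lists by role, which hold 123 genes besides the 10, all of them in the table and 106 of them tested. Of these 35 (33.0%) were higher and 8 (7.55%) lower, with a median log2 fold change of 0.27, against 16.6% higher, 17.4% lower and a median of 0.021 over all genes tested. The lists too were chosen with earlier results of these data known, so the excess is no measure of enrichment. Total-count scaling gave 58 higher and 4 lower, where 40.4% of all genes tested were higher and 6.60% lower. The rises stood mostly among genes of latency and activation (9 of 16), antagonists (7 of 10), TGF-beta targets (12 of 26) and BMP targets (4 of 10). These counts are not separate, because the lists share genes. Thbs1 and Ltbp2 are counted under latency and under TGF-beta targets, and Bambi under antagonists and BMP targets. Pmepa1 and Tgif1 are counted under SMAD regulators and TGF-beta targets. Of the SMADs 14.3% were higher and 14.3% lower, near the 16.6% and 17.4% of all genes tested. Other ligands had 18.2% higher and 9.09% lower, and other receptors and coreceptors 7.14% each way, 1 of 14 genes. Whether the share of any list differed from that of all genes tested was not tested.

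**Figure D5:**
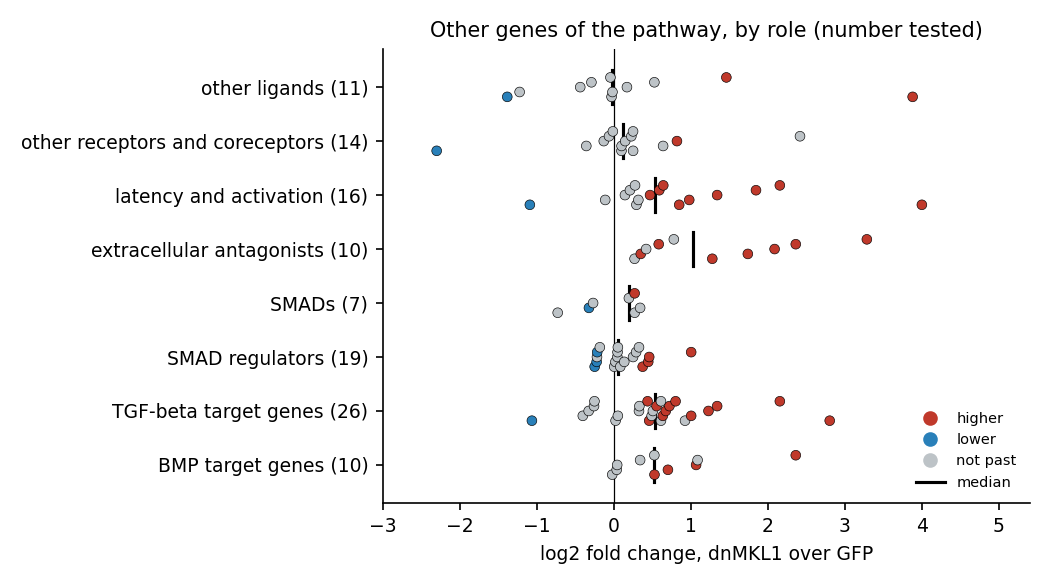
Log2 fold change of dnMKL1 over GFP for the tested genes of each role list, with the number tested in brackets. Red points were called higher and blue points lower (adjusted p-value under 0.05), grey points did not pass, and the black line is the list's median, which is highest, at 1.03, for the extracellular antagonists.

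Genes that hold or release latent TGF-beta gave 9 of 16 higher and 1 lower, with a median log2 fold change of 0.53. Fbn2, a fibrillin of the microfibrils to which latent complexes bind, had a log2 fold change of 1.85 (SE 0.24) in the authors' deposited table, with an adjusted Wald p-value of 5.67e-13. Ltbp3, a relative of Ltbp1, rose by 0.64 (SE 0.09) and Bmp1, a protease that processes matrix and latent complexes, by 0.59 (SE 0.10), and the authors' deposited table gave adjusted Wald p-values of 9.07e-11 and 1.45e-07. Ltbp2 and Ltbp4 were looked at after their values were seen: Ltbp2 rose by 1.34 (SE 0.49) and Ltbp4 was at 0.27 (SE 0.25) without passing, in the authors' deposited table. Of the 4 LTBP genes 3 therefore rose.

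Of the 4 listed subunits of integrins that activate latent TGF-beta, 2 were higher, 1 was lower and 1 did not pass. Itgb6 was lower, with implied means of 956 and 449 and a log2 fold change of -1.09 (SE 0.13, adjusted Wald p-value 3.79e-14) in the authors' deposited table. Itgb8 and Itgav, singled out after their values were seen, were higher, at 3.999 (SE 0.57) and 0.98 (SE 0.23) in the authors' deposited table, with adjusted Wald p-values of 5.53e-11 and 1.22e-04. The GFP mean of Itgb8 was only 2.74 normalized counts, so the size of its fold rests on few reads. Itgb5, the most abundant of the 4 with a base mean of 1664, was at 0.29 (SE 0.26, adjusted Wald p-value 0.421) in the authors' deposited table and did not pass. Itgb6 stayed lower under total-count scaling. Thbs1, thrombospondin 1, which also activates latent TGF-beta, had a log2 fold change of 2.15 (SE 0.53, adjusted Wald p-value 3.40e-04) in the authors' deposited table.

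Extracellular antagonists gave 7 of 10 tested higher and 0 lower, also 0 lower at an unadjusted p-value under 0.05. Bambi, a membrane pseudoreceptor that blocks type I receptors, went from 555 to 2854 normalized counts (implied means). The authors' deposited table listed a log2 fold change of 2.36 (SE 0.17) and an adjusted Wald p-value of 1.02e-41. Fstl1, a secreted follistatin-like protein, was at 1.74 (SE 0.22, adjusted Wald p-value 8.61e-14), Bgn, the proteoglycan biglycan, at 0.58 (SE 0.21, 0.0193) and Twsg1, which acts on BMP ligands, at 0.35 (SE 0.07, 2.95e-06) in the authors' deposited table.

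Of the antagonists with base means under 50, those known to bind activin or myostatin were then looked at, after their values were seen. Fst, follistatin, went from 2.01 to 19.6 normalized counts (implied means), and its fold rests on few reads in the GFP group. Fstl3 went from 10.5 to 44.7 and Wfikkn2, which binds myostatin, from 6.27 to 15.2. The authors' deposited table listed log2 fold changes of 3.28 (SE 0.89) for Fst, 2.09 (SE 0.42) for Fstl3 and 1.28 (SE 0.44) for Wfikkn2, with adjusted Wald p-values of 1.17e-03, 7.32e-06 and 0.0126. Wfikkn1, the paralogue of Wfikkn2 in the list, did not pass, at 0.42 (SE 0.73, adjusted Wald p-value 0.729) with a base mean of only 2.90 in the authors' deposited table. Inhba, Mstn and 3 of these 4 inhibitor genes were thus higher in the dnMKL1 group. Of the activin receptor genes, Acvr2a, Acvr2b and Acvr1b were not past the threshold. The authors' deposited table gave 0.10 (SE 0.09) for Acvr2a, -0.01 (SE 0.24) for Acvr2b and -0.36 (SE 0.28) for Acvr1b, with base means of 39.1 for Acvr2b and 36.4 for Acvr1b. Acvr1c, at a base mean of 0.55, had no adjusted p-value there.

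Among the other ligand genes 2 of 11 tested were higher and 1 lower, and 4 of the 20 listed were at 0 (Inhbe, Lefty2, Gdf1 and Gdf3). Gdf15, a distant member of the family that is induced by cell stress, had a log2 fold change of 3.88 (SE 0.43, adjusted Wald p-value 2.34e-17) in the authors' deposited table, with an implied mean of 8.87 for GFP. The other activin and inhibin subunit genes did not rise with Inhba: Inha and Inhbb were at -0.29 (SE 0.17) and -1.22 (SE 0.66) in the authors' deposited table, neither past the threshold. Of 14 other receptor and coreceptor genes tested 1 was higher, Rgma, a coreceptor for BMP ligands, at 0.82 (SE 0.13, adjusted Wald p-value 1.57e-08) in the authors' deposited table, and 1 lower.

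The receptor-activated SMADs of the pathway moved slightly and in opposite directions. Smad2 was higher by 0.27 (SE 0.11, adjusted Wald p-value 0.0367) and Smad3 was at -0.32 (SE 0.10, 0.00689) in the authors' deposited table, and these were the 2 of 7 SMAD genes past the threshold. Under total-count scaling Smad3 was no longer past it (-0.04). Smad4, the shared partner of both, had an SE of 0.70 in the authors' deposited table, so that its value of -0.27 carries little information. Of 19 regulators of SMADs tested 4 (21.1%) were higher and 3 (15.8%) lower, shares near the 16.6% and 17.4% of all genes tested. Among them Pmepa1, Ski and Trim33, which restrain SMAD signalling, were higher by 0.46 (SE 0.16), 0.37 (SE 0.13) and 0.45 (SE 0.16) on the log2 scale, and the ubiquitin ligase gene Stub1 was at -0.25 (SE 0.09), in the authors' deposited table. Their adjusted Wald p-values there were 0.0137, 0.0147, 0.0189 and 0.0261. Under total-count scaling 11 regulators were higher and 0 lower, where 40.4% of all genes tested were higher and 6.60% lower, and Stub1 turned to 0.039.

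Known target genes of TGF-beta gave 12 of 26 higher and 1 lower, with a median log2 fold change of 0.53. The largest rise among those named was that of Cdkn1a, a cell cycle inhibitor that p53 also induces, at 2.80 (SE 0.24, adjusted Wald p-value 2.91e-29) in the authors' deposited table. Col1a2, a fibrillar collagen, was at 0.64 (SE 0.14, 5.83e-05), while Acta2, smooth muscle actin and also an SRF target, was at -1.06 (SE 0.25, 1.89e-04) in the authors' deposited table. Of the 26 genes 6 are also in the fibroblast or mural marker lists, and of the remaining 20, 8 were higher and 0 lower (10 at an unadjusted p-value under 0.05 in either direction). Of other targets named after their values were seen, Tgfbi and Fn1, which encode matrix proteins, were higher, at 1.23 (SE 0.25, adjusted Wald p-value 1.08e-05) and 0.55 (SE 0.17, 0.00549) in the authors' deposited table. Ctgf did not pass, at -0.26 (SE 0.26) in the authors' deposited table.

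No value per library was available for any of these genes, so whether 1 library carries a rise is unknown. RefSeq lists 8 other genes, each a long noncoding RNA, a small nucleolar RNA or a pseudogene, that overlap the 10, and 0 of them appear in the table under their symbols, so shared reads could not be examined.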

How the data were processed

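Polyadenylated RNA of sorted cardiomyocytes was sequenced in 5 GFP and 5 dnMKL1 libraries. Per the labels' protocols, 10 ng of total RNA entered a SMART-Seq reaction with 8 PCR cycles, and 500 pg of cDNA a Nextera XT library. Per the submitters' processing notes, reads were aligned to mm10 with STAR 2.5.3a and counted with featureCounts (Subread 1.5.2). Which annotation was counted, and whether by strand, is not given in the sources used here. The single table is the authors' comparison with DESeq-type columns. Per the file headers, the base mean is a signal in normalized counts, the deposited fold change and SE are on the log2 scale, and the Wald statistic is a score. The deposited p-value is two-sided, and Benjamini-Hochberg adjustment of it gave back the deposited adjusted values (largest gap 1.44e-07).

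Computed here (Python 3.11.15, scipy 1.17.1) were implied group means, 95% intervals (1.96 SE in normal approximation), implied dispersions, list counts and 8 alternatives. The implied means, the implied dispersions and the Benjamini-Hochberg adjustment were tested on simulated data. The list counts, the library totals and the alternatives were not. Intervals cover the fitted error only, and reads carry no molecular identifiers. Library totals are estimates, each a size factor times its group's summed implied means. Longest transcripts came from GENCODE M21 on GRCm38, the assembly mm10 names. The members and gene lists were chosen with earlier results of these data known. Named by rule were the 10 genes, up to 4 genes per role list with the smallest adjusted p-value under 0.05 and a base mean of at least 50, Mkl1, and the 2 most abundant markers per list. Some genes are not reported here.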

Additional observations from a re-analysis of the deposited data

How the results depend on the processing

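No paired analysis was possible because the table holds no value per library, so the count tests, other normalizations and fits without each replicate that had been planned were not run. The 6 rises were called under 7 of 8 alternatives and 4 of them under the other. The alternatives were adjusted p-values under 0.01 and 0.1, adjustment over every p-value, base means of at least 10 and 100, total-count scaling, median-centring and a minimum absolute log2 fold change of 0.5. The base mean of at least 100 leaves out Inhba and Mstn. Total-count scaling raised the count to 10 of 10, where 40.4% of all genes tested were higher and 6.60% lower. For the other pathway genes, the 35 higher became 22 at an adjusted p-value under 0.01, 23 when only base means of 100 or more were kept and 58 under total-count scaling. The 8 lower became 3 at 0.01, 4 under total-count scaling and 4 with the minimum fold change. Total-count scaling reversed Tgfbr3 to 0.23, Stub1 to 0.039, Mb to 0.032, Fabp4 to 0.18 and Csf1r to 0.28, by the 0.29 it adds to every gene. At low base means the fold depends on few reads, as for Inhba, Mstn, Fst and Itgb8.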

Other observations

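The BMP branch of the family, which signals through SMAD1, SMAD5 and SMAD9, also held changes in both directions. Bmp2, a BMP ligand of the heart, was higher and Bmp5 lower, with log2 fold changes of 1.46 (SE 0.41, adjusted Wald p-value 0.00192) and -1.38 (SE 0.46, 0.0105) in the authors' deposited table, at base means of 22.4 and 8.30. The type I receptor gene Bmpr1b was lower at -2.30 (SE 0.78, adjusted Wald p-value 0.0126) in the authors' deposited table, with a base mean of 9.33. All 3 were named after their values were seen. Bmp10 had an SE of 2.04 in the authors' deposited table, so that its value cannot be read.

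Of 10 BMP target genes 4 were higher and 0 lower, also 0 lower at an unadjusted p-value under 0.05, with a median log2 fold change of 0.53. Beside Bambi these were Id2 at 1.07 (SE 0.21, adjusted Wald p-value 2.78e-06), Id3 at 0.70 (SE 0.26, 0.0239) and Atoh8 at 0.53 (SE 0.22, 0.0477) in the authors' deposited table. Id2 and Id3 encode inhibitors of basic helix-loop-helix factors. Id1, of the same family and chosen after its value was seen, was at 0.04 (SE 0.40) and did not pass in the authors' deposited table. Atoh8 was no longer past the threshold with adjustment over every p-value (0.0589).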
